A study of Mus musculus with 32 samples.

Results

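Loss of the 3′ DNA exonuclease TREX1 was induced in macrophages in culture, and what is described here is how the transcript difference between Trex1-deleted and control cells changed from day 2 to day 3 after the end of induction. The members are the libraries of cells exposed to 4-hydroxytamoxifen (4-OHT) and harvested on these days, 8 of the 32 libraries of the series. They form 4 groups of 2 libraries: Trex1 WT/FL on day 2, Trex1 FL/FL on day 2, Trex1 WT/FL on day 3 and Trex1 FL/FL on day 3. For each gene, the FL/FL minus WT/FL difference of day 2 was subtracted from that of day 3, and this difference of differences is called the interaction below. A positive interaction means that FL/FL cells stood higher relative to WT/FL cells on day 3 than on day 2, whichever genotype moved.

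The cells were bone marrow-derived macrophages (BMDMs), grown from mouse bone marrow in medium with L929 cell supernatant, a source of macrophage growth factor. All groups carried CreERT2, a Cre recombinase that 4-OHT activates, at the Rosa26 locus, which is active in most cell types, so 4-OHT exposure at 2 µg/ml for 22 h deleted loxP-flanked (FL) Trex1 alleles in both genotypes. Control cells with 1 WT and 1 FL allele therefore lost 1 allele under the same exposure and kept the other. The remaining libraries are untreated cells of both genotypes on each day and 4-OHT-treated cells of days 1 and 4. Age and sex of the mice are not given in the sources used here, nor is it given which libraries came from the same animal, so the p-values measure the spread between these libraries, which may be technical.

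TREX1 degrades DNA that reaches the cytosol. Where it is missing, the sensor cGAS binds such DNA and makes a messenger that activates STING, and STING signalling induces type I interferon (IFN) and, through the IFN receptor, interferon-stimulated genes (ISGs). A second set of genes matters below: ATF4 is a transcription factor made when protein synthesis is slowed by amino acid shortage or other stress, and it switches on amino acid synthesis enzymes, amino acid transporters and aminoacyl-tRNA synthetases. BMDMs in culture can also leave the cell cycle and mature with time, and many genes changed between days in both genotypes. The part of cell cycle exit and maturation in these changes was not tested.

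The total counts of the 8 libraries ranged from 37328968 to 63760884, with a median of 46141882. The 2 libraries of each group correlated at r = 0.986 to 0.987 over genes, and none was a copy of another (chi-square per degree of freedom of 9.02 to 18.6). On the first principal component, with 59.2% of the variance, the libraries separated by day, and on the second, with 12.5%, by genotype. In these bulk libraries, fewer cells of a type and less RNA per cell cannot be told apart. The defining macrophage genes were at a high level in each library, with summed CPM (counts scaled to a common library size) of 27190 to 48740. Summed CPM of the fibroblast markers was at most 2.26 and of the erythroid markers at most 0.205. Neutrophil markers summed to 44.5 to 56.3 CPM (WT/FL) and 46.6 to 55.4 (FL/FL) on day 2 and 188 to 192 (WT/FL) and 191 to 200.4 (FL/FL) on day 3. Csf3r, the G-CSF receptor, made up most of that sum (36.8 to 191 CPM), while S100a9 was at most 7.99 CPM and Ly6g was at 0 in each library. Mast cell and basophil markers, 4 of 8 at 0 in each library, summed to 1.68 to 2.04 (WT/FL) and 7.63 to 8.07 (FL/FL) on day 2 and 1.32 to 1.54 (WT/FL) and 3.03 to 3.71 (FL/FL) on day 3. Most of that sum was Hdc (1.3 to 7.4 CPM), while Gata2, Kit and Cpa3 were each at most 0.322 CPM. Dendritic, B and T or NK cell markers are given beside the results they move with.

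Trex1 (chr9:108887001-108888802, minus strand, GRCm39) served as the check of the labels. On day 2 it stood at 57.6 and 56.9 CPM in the WT/FL libraries and at 0.347 and 0.250 CPM in the FL/FL libraries, which is 14 and 9 counts. On day 3 it stood at 68.9 and 79.4 CPM in WT/FL and at 0 counts in both FL/FL libraries, which is at least 846-fold lower against a floor of 3 counts per library, taken in the smaller FL/FL library. In 4-OHT-treated FL/FL cells it was also at 0 counts in both libraries of day 1 and of day 4, so the day 2 libraries were the only ones of the 4 days with any Trex1 count. The called widening of its difference (adjusted p = 0.00171, called in 6 of the 8 fits that left out 1 library) rests on those few counts, and its fitted size has no meaning as a fold. In WT/FL cells, 4-OHT lowered Trex1 by 1.06 on the log2 scale on day 2 and by 0.86 on day 3, both called.

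Shisa5, which codes for a p53-inducible membrane protein of the endoplasmic reticulum, lies next to Trex1 (chr9:108867633-108887029, plus strand) and ends inside it on the opposite strand, with 29 bases in common. It stood at 227 and 208 CPM in WT/FL and 27.5 and 25.2 in FL/FL on day 2, and at 297 and 289.6 in WT/FL and 12.5 and 16.7 in FL/FL on day 3. FL/FL libraries were below WT/FL libraries on both days with no overlap, and the difference went from -3.04 to -4.31 on the log2 scale (interaction -1.27 ± 0.13 (SE), adjusted p = 1.43e-06). Like Trex1, Shisa5 was lowered by 4-OHT in WT/FL cells, by 0.84 on day 2 and 0.81 on day 3, and no 31-base stretch of its transcripts was found in another gene's transcripts. Atrip, whose gene spans all of Trex1 on the same strand and whose transcripts hold every 31-base stretch of Trex1, was not called (interaction 0.14, adjusted p = 0.700).

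Of 15257 genes tested with edgeR's quasi-likelihood test, 138 had a called interaction at an adjusted p below 0.01, which is 0.905% of those tested. The interaction was above 0 for 50 genes (0.328%) and below 0 for 88 (0.577%). At a threshold of 0.05, 415 genes passed. By comparison, the genotype difference was called for 1246 genes on day 2 (8.17%), 868 of them higher in FL/FL, and for 1848 on day 3 (12.1%), 1021 of them higher in FL/FL. The median SE of the interaction was 0.17 on the log2 scale, and 12 of the 138 genes also passed the study's minimum of 1.5 log2 units. The count rested on few libraries. It was 42 to 66 without any 1 of 6 libraries, and 103 and 110 without the first WT/FL library of day 2 and the second of day 3, while DESeq2 gave 324.

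The 138 genes were sorted by what their genotype difference did. A difference was gained by 76 genes, which were called on day 3 and not on day 2, with FL/FL higher on day 3 in 32 and lower in 44. It was lost by 29 genes, 25 of which had been higher in FL/FL on day 2. It widened, with the same sign on both days, for 21 genes (12 higher in FL/FL and 9 lower), and it narrowed for 8 genes, all higher in FL/FL on both days. It reversed for 1 gene, Stk40, and 3 genes (Amotl1, Tspan32 and the gene model Gm42549) were called on neither day. Just inside the threshold were Tmem50b and Slc7a8, each with an adjusted p of 0.00973, and Skic3 with 0.00988. Just outside were Psrc1 (0.81 on the log2 scale), Mxd1 (-0.46) and Nsd3 (-0.34), each with an adjusted p of 0.0101.

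**Figure D1:**
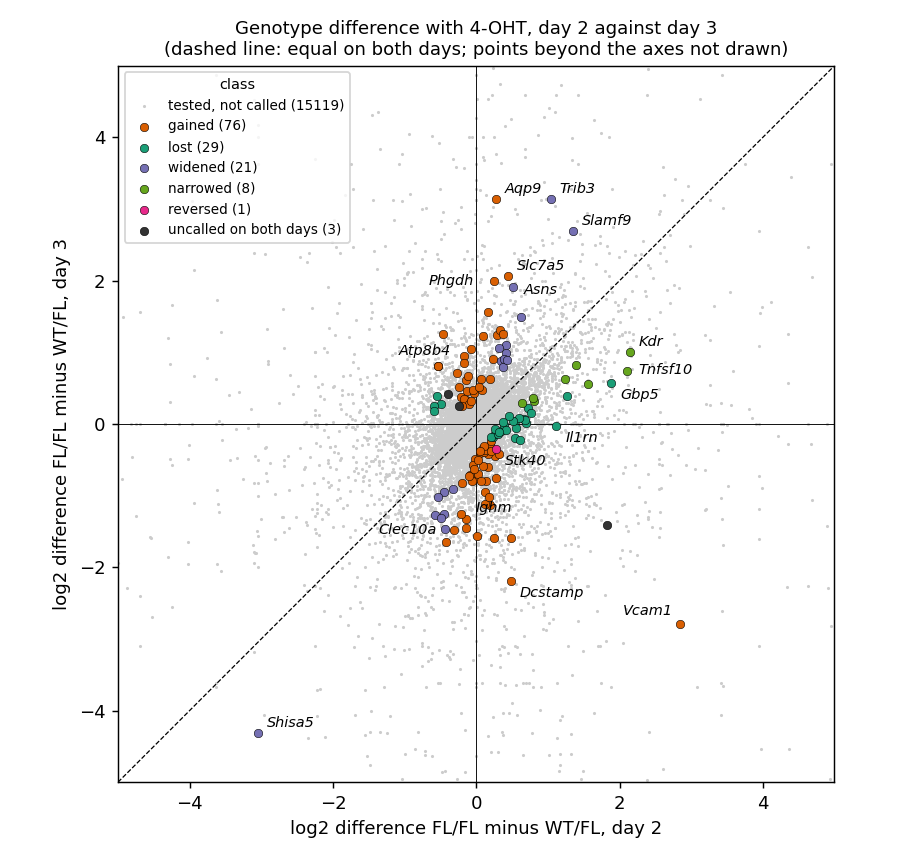
Genotype difference (log2 FL/FL minus WT/FL, 4-OHT) on day 2, x axis, against day 3, y axis, with 1 point per tested gene and the 138 called genes coloured by class. Most gained genes lie near 0 on the x axis and away from it on the y axis, lost genes the other way round, and Trex1 lies beyond the axes and is not drawn.

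Both genotypes changed strongly with time. Some interaction genes changed in the same direction in both genotypes and some in opposite directions. Others passed the test for a change in WT/FL only or in FL/FL only. From day 2 to day 3, 5049 genes changed in 4-OHT-treated FL/FL cells (33.1%) and 5537 in WT/FL cells (36.3%). Of the 50 genes with a positive interaction, 26 fell in both genotypes and 14 passed the test for a fall in WT/FL only, 4 rose in FL/FL only, 3 rose in FL/FL and fell in WT/FL, and 3 rose in both. Of the 88 with a negative interaction, 28 rose in WT/FL with no call in FL/FL, 21 rose in both, 19 fell in FL/FL with no call in WT/FL, 12 fell in both and 8 rose in WT/FL while falling in FL/FL. The larger change with time was the one in WT/FL for 41 of the 50 genes and for 51 of the 88.

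**Figure D2:**
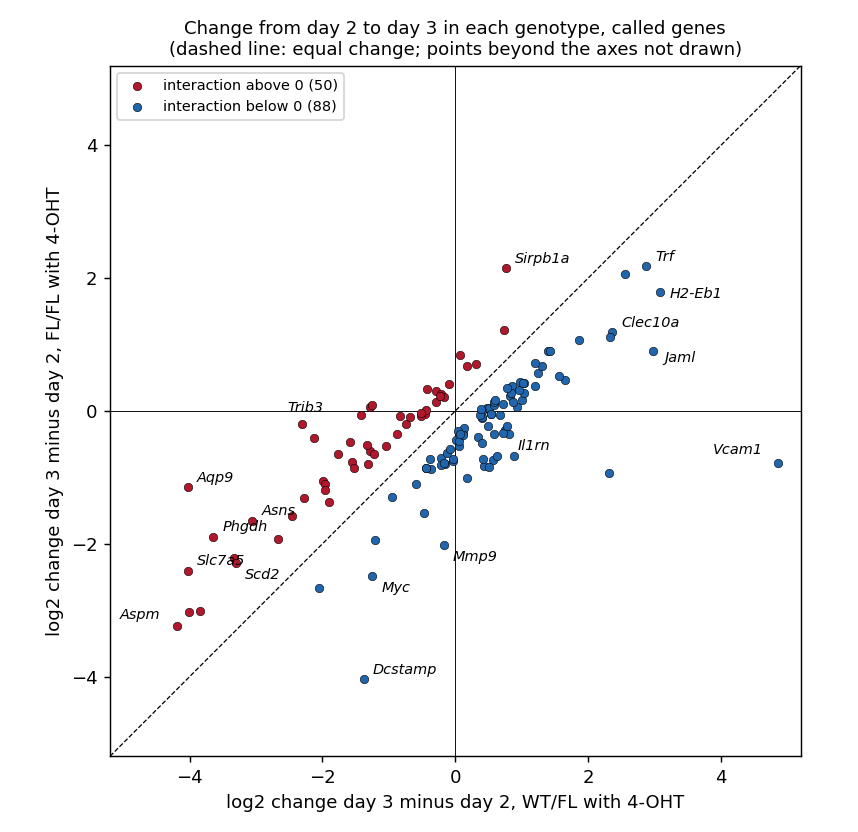
Change from day 2 to day 3 (log2, 4-OHT) in WT/FL, x axis, against FL/FL, y axis, for the 138 called genes. Points are coloured by the sign of the interaction, and those beyond the axes are not drawn. Called genes lie off the diagonal, and those with a positive interaction are mostly at the lower left, where both genotypes fell and WT/FL fell further.

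The untreated cells give the same interaction without deletion. No gene was called there with edgeR (0% of 15257, smallest adjusted p 0.619), while 558 genes had an unadjusted p below 0.05, and DESeq2 called 4. Over the 50 genes with a positive interaction under 4-OHT, the median was 0.77 under 4-OHT and 0.05 in untreated cells. Over the 88 with a negative one it was -0.62 under 4-OHT and -0.002 in untreated cells, where 43 were above 0 and 45 below. Because these genes were chosen by their 4-OHT interaction, the sign and size of its medians follow from that choice. Tested directly, the 4-OHT interaction differed from the untreated one for 11 genes (0.0721%): Asns, Aars1 and Atp8b4 upward, and Trex1, Shisa5, Pdk3, Ighm, Clec10a, Ptgs1, Slc30a1 and Sema4a downward. This test and the 4-OHT interaction share the 8 treated libraries.

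The clearest group among the rises was that of the ATF4 genes. Of 37 tested genes of the ATF4 amino acid stress list, 10 had a called positive interaction (27.0%, beside 0.328% of all genes) and none a called negative one. The interaction was above 0 for 32 of the 37 with a median of 0.44, beside -0.01 over all genes. These genes fell from day 2 to day 3 in both genotypes, by a median of 0.65 on the log2 scale in FL/FL and of 1.28 in WT/FL. The median genotype difference was 0.29 on day 2, with 15 members called higher in FL/FL, and 0.60 on day 3, with 27. Of all 15257 genes, 868 were called higher in FL/FL on day 2 and 1021 on day 3. In untreated cells the median interaction of the list was 0.0029. The list was compiled with earlier results of these data known. Its median was 0.54 without the second WT/FL library of day 3.

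Asns (chr6:7671667-7728461), asparagine synthetase, stood at 101 and 109 CPM in the WT/FL libraries and 143 and 157 in the FL/FL libraries on day 2, and at 12.4 and 12.9 in WT/FL and 49.1 and 46.0 in FL/FL on day 3. All groups were apart on both days, and the FL/FL libraries of day 3 kept a higher level than any other library of that day, since untreated cells were at 10.8 and 8.96 CPM (WT/FL) and 10.0 and 10.4 CPM (FL/FL). The genotype difference went from 0.51 to 1.91 on the log2 scale (interaction 1.40 ± 0.14 (SE), adjusted p = 1.04e-06), against 0.02 for the interaction in untreated cells. On day 4 the difference was 1.34.

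Trib3 codes for a pseudokinase that feeds back on ATF4 signalling. It stood at 13.2 and 19.1 CPM in WT/FL and 32.2 and 34.4 in FL/FL on day 2, and at 3.35 and 3.19 in WT/FL and 30.1 and 27.9 in FL/FL on day 3. WT/FL thus came close to the untreated level of day 3 ( 3.10 and 1.91 CPM in WT/FL and 2.53 and 1.78 CPM in FL/FL), and the change of FL/FL was -0.20 on the log2 scale (adjusted p = 0.442). Its interaction was 2.11 ± 0.29 (SE, adjusted p = 0.000258), and its difference of 3.14 was the largest of the list on day 3.

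Serine is made from a glycolytic intermediate by PHGDH, and the light chain of the leucine transporter LAT1 is SLC7A5. Phgdh stood at 77.1 and 75.5 CPM in WT/FL and 82.5 and 98.4 in FL/FL on day 2, and at 5.33 and 6.95 in WT/FL and 26.6 and 22.3 in FL/FL on day 3. The day 2 libraries of Phgdh lay close together with no call (0.24, adjusted p = 0.299), and those of day 3 were well apart (1.99), for an interaction of 1.75 ± 0.21 (SE, adjusted p = 5.34e-05). Of its 31-base stretches, 39.8% also occur in pseudogene transcripts, so its counts could be split. Slc7a5 stood at 60.8 and 61.9 CPM in WT/FL and 85.0 and 82.4 in FL/FL on day 2, and at 3.01 and 4.58 in WT/FL and 16.8 and 14.9 in FL/FL on day 3. Its interaction was 1.62 ± 0.21 (SE, adjusted p = 0.000113), from 0.45 on day 2 to 2.07 on day 3.

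Aars1, which charges alanine tRNA, stood at 227 and 234 CPM in WT/FL and 299 and 319 in FL/FL on day 2, and at 91.8 and 98.1 in WT/FL and 207 and 199 in FL/FL on day 3 (interaction 0.67 ± 0.0783 (SE), adjusted p = 6.56e-06). Of its 31-base stretches, 12.7% occur in other genes. The replicate libraries of Aars1 lay close together and the genotypes were apart on both days. The transcript of Atf4 itself stood at 189 and 212 CPM in WT/FL and 259 and 277 in FL/FL on day 2, and at 87.7 and 84.3 in WT/FL and 174 and 166 in FL/FL on day 3. Its interaction was 0.57 (adjusted p = 0.000996). ATF4 protein is controlled largely at translation, which these counts do not measure. The other 4 called members were Mthfd2 (0.86, mitochondrial folate enzyme), Slc7a1 (0.88, arginine and lysine transporter), Aldh18a1 (0.73, proline synthesis) and Sars1 (0.54, seryl-tRNA synthetase). For all 10, FL/FL was also called higher on day 4, by 0.39 to 2.41 on the log2 scale, beside 1502 of all 15257 genes. Members of the list with larger but uncalled interactions, such as Stc2 (3.09, adjusted p = 0.322) and Chac1 (1.61, adjusted p = 0.0511), stand beside 5 members below 0, the lowest being Vldlr (-0.41, adjusted p = 0.464).

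**Figure D3:**
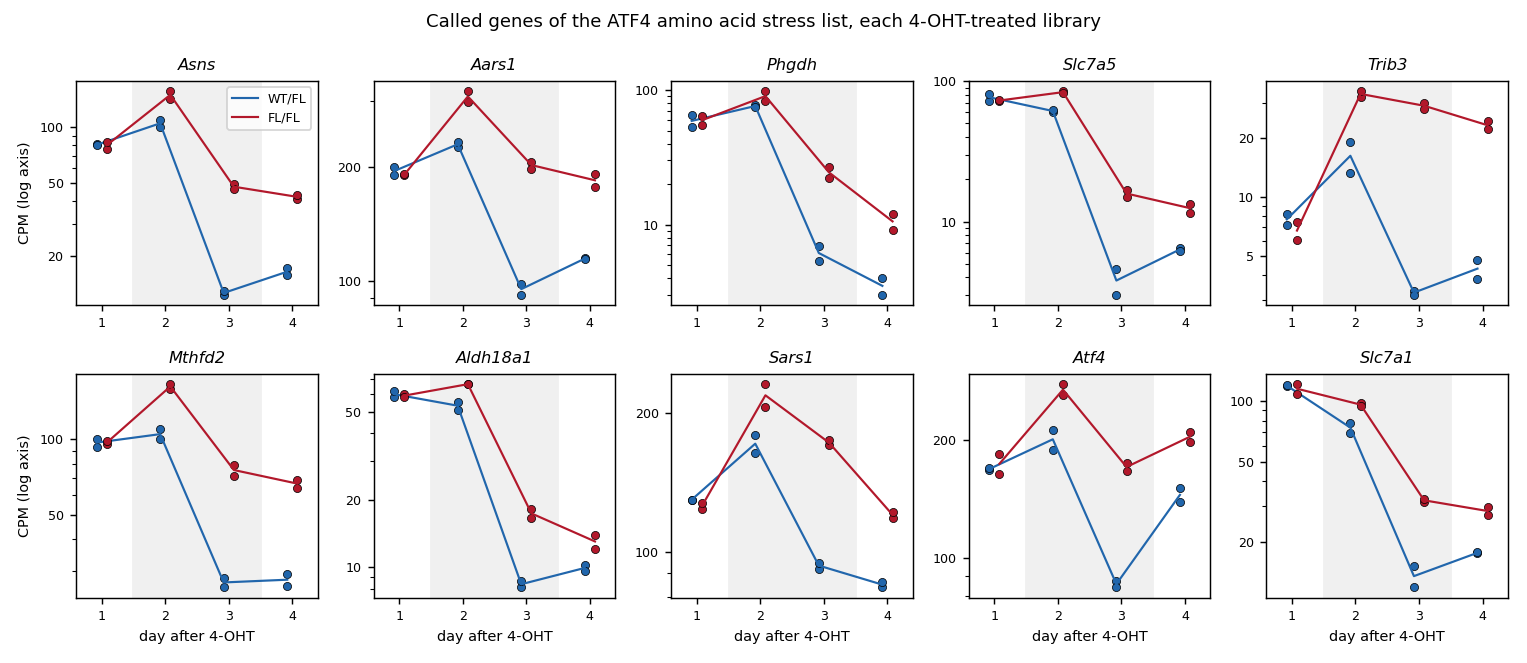
CPM of the 10 called genes of the ATF4 list in each 4-OHT-treated library over days 1 to 4 (log axis), with points for libraries, lines through group means and a grey band over days 2 and 3. Both lines start together on day 1, and from day 2 to day 3 the WT/FL line drops further than the FL/FL line in all 10 panels.

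ATF4 binds, with C/EBP proteins, a composite element, searched for as TGATGNAA on both strands in the 300 bases around each start (250 before and 50 after). The element was chosen after the values were seen. It occurs in 2.70% of 15155 windows, in 1 of the 10 called ATF4-list genes, in 3 of the 50 genes with a positive interaction (6.00%) and in none of the 88 with a negative one. The 1 gene is Aars1, with 2 copies on the strand opposite to the gene, shown with the element in capitals because they are the only such matches among the called list members (windows at GENCODE starts, GRCm39, 5′ to 3′ along the gene).
Aars1, chr8:111760332-111760399, plus strand: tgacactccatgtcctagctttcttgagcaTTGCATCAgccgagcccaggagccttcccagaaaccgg
Aars1, chr8:111760453-111760507, plus strand: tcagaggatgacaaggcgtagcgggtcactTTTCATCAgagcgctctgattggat
The first copy ends 139 bases and the second 18 bases before the start. A match is a run of letters in this window only, and other elements of the list members may lie outside it.

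Outside the ATF4 list, the genes with the largest positive interactions were of mixed function. Aqp9, a water and glycerol channel, was low on day 3 in WT/FL. It stood at 5.86 and 6.90 CPM in WT/FL and 7.33 and 8.08 in FL/FL on day 2, and at 0.400 and 0.380 in WT/FL and 3.51 and 3.44 in FL/FL on day 3 (interaction 2.87 ± 0.41 (SE), adjusted p = 0.000145). Slamf9, a SLAM family receptor, kept its level in FL/FL, with 67.9 and 68.3 CPM on day 2 and 66.9 and 63.5 on day 3, while WT/FL went from 26.6 and 27.0 to 9.63 and 10.5 (interaction 1.35, adjusted p = 6.56e-06). Atp8b4 (chr2:126162893-126342594), a phospholipid flippase, had close levels in both genotypes on day 2, with 180.0 and 180.1 CPM in WT/FL and 163 and 181 in FL/FL, and on day 3 stood at 58.8 and 61.6 in WT/FL and 115 and 132 in FL/FL. Its interaction of 1.11 ± 0.0996 (SE) had an adjusted p of 3.06e-07, the smallest of all genes tested. These 3 stayed called with any 1 of the 8 libraries left out, as did the first 5 ATF4-list genes above.

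The other large rises were less secure. Sirpb1a, a signal-regulatory receptor, rose in FL/FL from 11.5 and 8.10 CPM to 46.5 and 40.8 and in WT/FL from 9.23 and 8.23 to 14.4 and 15.2 (interaction 1.39), but it shares 53.3% of its 31-base stretches with its paralogs, and its call held in 2 of the 8 fits that left out a library. Matn2 (1.73, a matrix protein), Rgs12 (1.34, a regulator of G protein signalling) and the noncoding RNA Pvt1 (1.33) each stayed called in 1 of those 8 fits. Scd2, a fatty acid desaturase, fell in WT/FL from 985 and 963 CPM to 93.1 and 104 and in FL/FL from 859.9 and 874 to 157 and 198 (interaction 1.02, 2 of 8 fits). Smaller rises were seen for Ccng1 (0.59, cyclin G1, a p53 target, 5 of 8 fits) and Ctsd (0.39, the lysosomal protease cathepsin D, 2 of 8 fits, 21.2% of its 31-base stretches shared). Amotl1 (0.82) and Tspan32 (0.49), called on neither day alone, held in 1 and 0 of 8 fits.

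Most mitotic genes had small positive interactions. Of 67 tested genes of the G2 and mitosis list, 4 had a called positive interaction (5.97%, against 0.328% of all genes) and none a negative one, and 64 were above 0, with a median of 0.39. The list fell steeply with time in both genotypes, by a median of 3.24 on the log2 scale in FL/FL and 3.77 in WT/FL. Its genotype difference had a median of -0.28 on day 2 and 0.11 on day 3. In untreated cells the median interaction was 0.18, with 56 of the 67 above 0 and none called. On day 4 FL/FL stood below WT/FL, with a mean log2 CPM over the list of 1.05 and 0.95 in the FL/FL libraries. It was 3.06 and 3.01 in the WT/FL libraries of that day. For the 57 genes of the S phase list no interaction was called and the median was 0.00.

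Tpx2, which nucleates spindle microtubules, gained a difference: it stood at 99.8 and 101 CPM in WT/FL and 94.6 and 83.4 in FL/FL on day 2, and at 9.31 and 10.6 in WT/FL and 20.6 and 17.8 in FL/FL on day 3 (interaction 1.12, adjusted p = 1.68e-05). Nek2, a centrosomal kinase, gained one as well (0.98, 2 of 8 fits). The spindle proteins Ckap2 and Aspm lost one. Aspm stood at 67.4 and 60.7 CPM in WT/FL and 47.4 and 40.0 in FL/FL on day 2, and at 3.96 and 3.04 in WT/FL and 5.44 and 4.00 in FL/FL on day 3, where the groups came close (interaction 0.94, 2 of 8 fits). The untreated interaction of Aspm was of the same size (0.93, not called). Ckap2 went from -0.59 on day 2 to 0.25 on day 3 on the log2 scale (interaction 0.83, 0 of 8 fits). Mki67, the proliferation marker, had no called interaction (0.23, adjusted p = 0.421, 95% interval -0.03 to 0.50).

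Several gained falls were genes that rose with time in the control cells and rose less in FL/FL. Clec10a (chr11:70047023-70061660), a galactose-binding lectin of alternatively activated macrophages, stood at 16.7 and 17.4 CPM in WT/FL and 14.4 and 13.2 in FL/FL on day 2, and at 93.9 and 81.8 in WT/FL and 31.8 and 30.9 in FL/FL on day 3. The groups lay near each other on day 2 and well apart on day 3 (interaction -1.18 ± 0.14 (SE), adjusted p = 6.56e-06). Untreated cells were higher than both on day 3, with 213 and 255 CPM in WT/FL and 236 and 239 in FL/FL, so Clec10a is also 1 of the 52 genes that 4-OHT changed in WT/FL cells on day 3. Other transcripts, of its paralog Mgl2 above all, hold 15.0% of its 31-base stretches.

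H2-Eb1, a chain of MHC class II, rose in WT/FL from 5.64 and 6.20 CPM to 49.2 and 51.8 and in FL/FL from 6.12 and 4.55 to 20.3 and 16.9 (interaction -1.30, adjusted p = 0.00546, 2 of 8 fits). Of 11 tested MHC class II genes it was the only one called (9.09%, beside 0.905% of all genes). The list median was -0.53 under 4-OHT and 0.20 in untreated cells. Of 25 alternative activation genes, Clec10a and Egr2 were called (8%), with a list median of -0.55. Beside these lists, the summed CPM of 10 dendritic cell markers was 398 to 441 (WT/FL) and 784 to 792 (FL/FL) on day 2 and 597 to 701 (WT/FL) and 1044 to 1076 (FL/FL) on day 3. It was thus higher in FL/FL on both days, with no marker called in the interaction, and nearly all of the sum was Bst2, itself an ISG, at 393 to 1060 CPM. Kmo ranged from 3.69 to 27.5 CPM, Zbtb46 was at most 2.03 CPM and each of the other 7 markers was below 1 CPM. Its part in these results was not tested.

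Pdk3 (chrX:92789513-92876389), a kinase that restrains pyruvate dehydrogenase, moved in opposite directions in the genotypes: 17.8 and 18.6 CPM on day 2 and 26.2 and 28.0 on day 3 in WT/FL, and 22.0 and 19.4 on day 2 and 12.9 and 11.8 on day 3 in FL/FL (interaction -1.32 ± 0.13 (SE), adjusted p = 1.04e-06). Ptgs1, cyclooxygenase 1, was already lower in FL/FL on day 2, with 27.9 and 25.3 CPM in WT/FL and 20.4 and 19.0 in FL/FL, and the gap widened on day 3, with 44.7 and 44.3 in WT/FL and 17.8 and 14.6 in FL/FL (interaction -1.03, adjusted p = 5.26e-06). Both genes were called in all 8 fits that left out a library.

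Ighm (chr12:113382178-113386350), the heavy chain of IgM, stood at 167 and 168 CPM in WT/FL and 152 and 153 in FL/FL on day 2, and at 193 and 184 in WT/FL and 78.6 and 72.5 in FL/FL on day 3 (interaction -1.19 ± 0.12 (SE), adjusted p = 1.43e-06). The FL/FL libraries of day 3 stood apart from all others, and on day 4 the genotype difference was -0.11 (adjusted p = 0.354). Ighm is a B cell marker: the summed CPM of the 7 B cell markers in the table was 171 to 173 (WT/FL) and 156 to 158 (FL/FL) on day 2 and 189 to 199.7 (WT/FL) and 76.9 to 83.0 (FL/FL) on day 3, of which Ighm made up nearly all, and 1 marker was at 0 in each library. T and NK cell markers went from 31.5 to 33.2 (WT/FL) and 48.8 to 53.3 (FL/FL) summed CPM on day 2 to 34.7 to 40.1 (WT/FL) and 54.4 to 63.0 (FL/FL) on day 3, with 5 of 10 at 0 in each library and nearly all of the sum from Il7r. The part of such cells in this result was not tested.

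Immediate early genes, which respond quickly to growth factors and stress, held 4 of the called falls. Of 36 tested immediate early genes, 4 had a called negative interaction (Zfp36, Myc, Egr2 and Fos) and none a positive one, with 26 below 0 and a median of -0.35. These were 11.1% of the list, against 0.577% of all genes. In untreated cells the median interaction was -0.07, with 27 of the 36 below 0 and none called. The list's median genotype difference went from 0.17 on day 2 to -0.22 on day 3. Myc stood at 10.8 and 11.6 CPM in WT/FL and 11.9 and 12.4 in FL/FL on day 2, and at 5.37 and 3.98 in WT/FL and 2.22 and 2.14 in FL/FL on day 3 (interaction -1.23, adjusted p = 0.000981, 6 of 8 fits). Fos, a part of AP-1, rose in WT/FL from 95.4 and 78.8 CPM to 296 and 218 and in FL/FL from 110.2 and 102 to 151 and 155 (interaction -1.03, 1 of 8 fits). The WT/FL libraries of day 3 were spread widely for Fos, but both were above the FL/FL ones. The interaction of Egr2, a zinc finger factor, was -1.58 (adjusted p = 0.00428, 3 of 8 fits).

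Of the remaining large falls, Mmp9, a secreted gelatinase, kept its level in WT/FL, with 15.3 and 18.7 CPM on day 2 and 14.7 and 15.5 on day 3, and went from 21.8 and 18.5 to 5.06 and 4.92 in FL/FL (interaction -1.84). Its call held in none of the 8 fits. Dcstamp, a fusion protein of osteoclasts and giant cells, had an interaction of -2.67 at CPM of at most 6.14 (3 of 8 fits), and Jaml, an adhesion molecule, of -2.08 (1 of 8 fits). Vcam1, the vascular adhesion molecule and NF-κB target, was near the floor, at 0.0436 and 0.0182 CPM in WT/FL and 0.322 and 0.139 in FL/FL on day 2 and 0.628 and 1.27 in WT/FL and 0.175 and 0.103 in FL/FL on day 3. Its called interaction therefore has no usable size. Tnfaip3 (-0.58, 1 of 8 fits), which codes for the NF-κB inhibitor A20, was the other called gene among 54 of the NF-κB list, whose median was -0.18. The 2 calls were 3.7% of that list, beside 0.905% of all genes. H1f2 (-0.87, a linker histone, 5 of 8 fits, 11.4% of its 31-base stretches shared) was the 1 call among 31 replication-dependent histone genes (3.23%). Their median of 0.12 turned negative, to -0.21, without the first WT/FL library of day 2.

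Most genes that lost their difference had been higher in FL/FL on day 2. Il1rn (chr2:24226865-24241506), the IL-1 receptor antagonist, stood at 17.2 and 19.7 CPM in WT/FL and 39.4 and 40.8 in FL/FL on day 2, and at 31.8 and 33.0 in WT/FL and 32.7 and 30.7 in FL/FL on day 3. The groups were well apart on day 2 and overlapped on day 3, and the difference went from 1.12 to -0.03 on the log2 scale (interaction -1.15 ± 0.15 (SE), adjusted p = 5.12e-05). On day 4 FL/FL was higher again, by 0.56 (adjusted p = 0.000166).

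Zfp36 codes for tristetraprolin, which promotes decay of cytokine mRNAs. It stood at 131 and 116 CPM in WT/FL and 193 and 184 in FL/FL on day 2, and at 263 and 230.4 in WT/FL and 217 and 206 in FL/FL on day 3 (interaction -0.83 ± 0.11 (SE), adjusted p = 0.000113). Slc30a1 (chr1:191638808-191645361), the zinc exporter ZnT1, stood at 55.6 and 58.3 CPM in WT/FL and 81.4 and 84.1 in FL/FL on day 2, and at 90.2 and 91.5 in WT/FL and 81.2 and 77.0 in FL/FL on day 3 (interaction -0.74 ± 0.0837 (SE), adjusted p = 5.42e-06). For Zfp36 the control cells rose with time while FL/FL had no called change. For both genes FL/FL was above WT/FL on day 2 and below it on day 3, without a call on day 3.

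The 1 reversed gene, Stk40 (chr4:125997734-126034825), a serine/threonine kinase, stood at 42.6 and 45.9 CPM in WT/FL and 53.7 and 53.3 in FL/FL on day 2, and at 97.6 and 84.5 in WT/FL and 71.0 and 72.4 in FL/FL on day 3. FL/FL was higher by 0.27 on day 2 (adjusted p = 0.00721) and lower on day 3, where the difference was -0.35 (adjusted p = 0.000455), with no overlap on either day. The interaction was -0.62 ± 0.0970 (SE, adjusted p = 0.000502), and on day 4 the difference was -0.02 (adjusted p = 0.867). The interaction was called in all 8 fits that left out a library, but the number of reversed genes ranged from 0 to 3 in them.

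IFN-inducible GTPases and other ISGs were among the differences lost or narrowed. Gbp5, an inflammasome-promoting GTPase, stood at 34.8 and 34.0 CPM in WT/FL and 122 and 132 in FL/FL on day 2, and at 49.9 and 56.5 in WT/FL and 79.7 and 78.1 in FL/FL on day 3 (interaction -1.31, adjusted p = 0.00935). FL/FL stayed above WT/FL on day 3 without overlap, although the difference of 0.57 missed the threshold (adjusted p = 0.0339). Untreated cells of both genotypes were also higher on days 2 and 3 than on days 1 and 4. They stood at 2.29 and 1.26 CPM (WT/FL) and 1.96 and 1.64 CPM (FL/FL) on day 1, 28.7 and 25.9 and 28.4 and 24.1 on day 2, 32.8 and 50.2 and 44.5 and 45.6 on day 3 and 9.41 and 14.4 and 11.8 and 12.0 on day 4, in the same order. The interaction call of Gbp5 held in none of the 8 fits and was lost with another scaling (RLE). Gbp7 (-0.88, 2 of 8 fits, 13.5% of its 31-base stretches shared with other genes) lost its called difference as well, with 129 and 105 CPM in WT/FL and 275 and 287 in FL/FL on day 2, and 140.4 and 168 in WT/FL and 203 and 199 in FL/FL on day 3.

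Tnfsf10, the death ligand TRAIL, narrowed: it stood at 16.1 and 11.0 CPM in WT/FL and 56.9 and 59.8 in FL/FL on day 2, and at 17.9 and 20.8 in WT/FL and 31.3 and 33.4 in FL/FL on day 3 (interaction -1.37, 1 of 8 fits). Samhd1, a dNTP hydrolase and ISG, rose in WT/FL from 793 and 718 CPM to 1094 and 1174, while FL/FL stood at 1307 and 1337 on day 2 and 1408 and 1420.2 on day 3 (interaction -0.49, 2 of 8 fits). Kdr, a VEGF receptor, fell in FL/FL from 69.1 and 68.5 CPM to 43.2 and 40.4, while WT/FL stood at 17.6 and 13.6 on day 2 and 18.1 and 23.3 on day 3 (interaction -1.13, 2 of 8 fits). FL/FL libraries of these 3 genes were above the WT/FL ones on both days. Among 19 cytosolic heat shock genes 2 were called (10.5%, beside 0.905% of all genes), with a list median of -0.22. They were the HSP90 cofactor Ahsa1 (narrowed, -0.42, 1 of 8 fits) and the chaperone Hspa8 (lost, -0.39, 2 of 8 fits). Hspa8 shares 23.0% of its 31-base stretches with other transcripts.

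**Figure D4:**
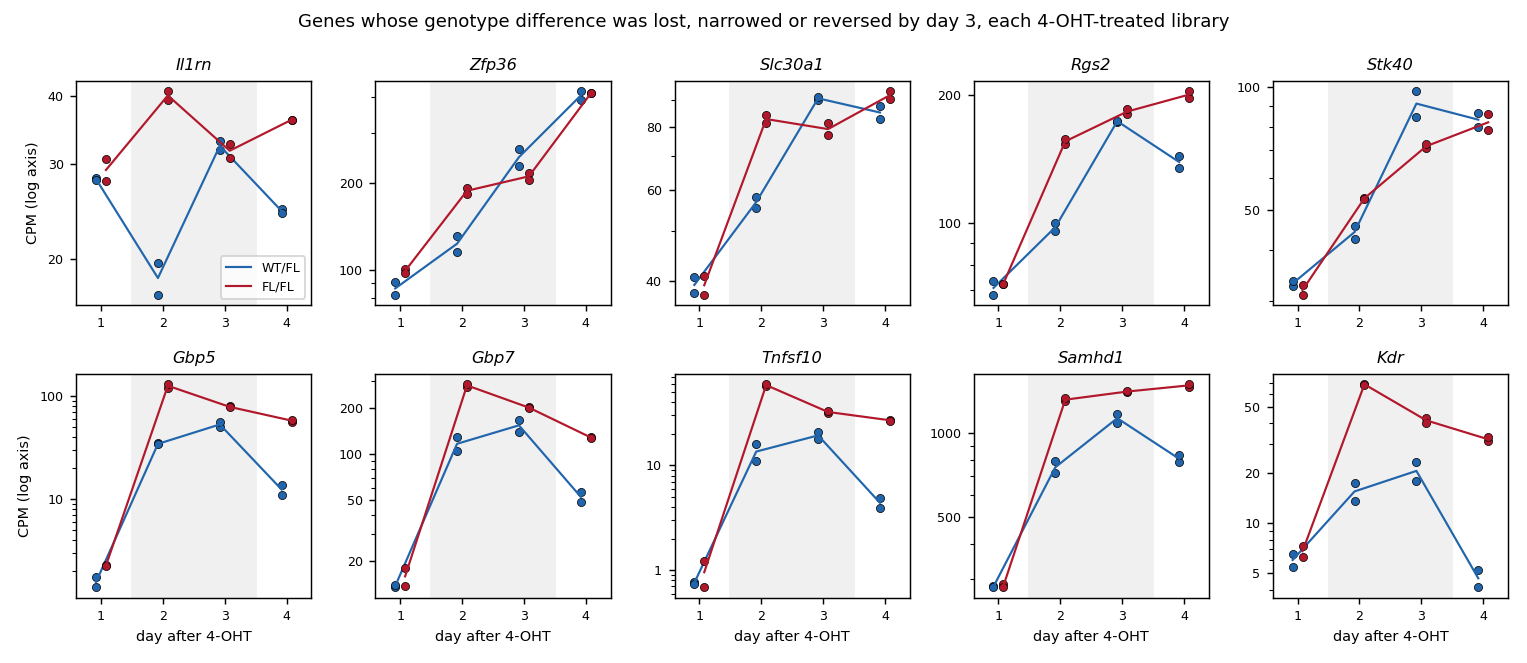
CPM in each 4-OHT-treated library over days 1 to 4 (log axis) for 10 genes whose genotype difference was lost, narrowed or reversed, with points for libraries, lines through group means and a grey band over days 2 and 3. For Il1rn the FL/FL and WT/FL 4-OHT lines are apart on day 2 and meet on day 3, and for Stk40 they cross.

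The ISG list stood higher in FL/FL on both days. Of 81 tested type I IFN-inducible genes, 79 were called higher in FL/FL on day 2, with a median of 0.97 on the log2 scale, and 76 on day 3, with a median of 0.75. Over all 15257 genes, 868 were called higher in FL/FL on day 2 and 1021 on day 3. The interaction was below 0 for 73 of the 81 with a median of -0.22, but was called for Gbp7 only (1.23%, beside 0.905% of all genes). In untreated cells it was above 0 for 79 of the 81 with a median of 0.18, and none was called. None of the 8 ISGs of the study's PCR panel had a called interaction. Values were -0.66 for Ifi44 (95% interval -1.43 to 0.12), -0.61 for Ifit3 (-1.15 to -0.07), -0.40 for Oasl1 (-1.01 to 0.21) and -0.30 for Isg15 (-0.87 to 0.27). They were 0.02 for Usp18 (-0.32 to 0.36), -0.01 for Oas1a (-0.21 to 0.19), -0.30 for Irf7 (-0.90 to 0.30) and -1.17 for Cxcl10 (-1.91 to -0.44). The adjusted p-values were 0.0878 for Cxcl10 and at least 0.257 for the others. A p above the threshold does not show that these genes did not change.

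Cxcl10, a chemokine made in response to IFN, had the lowest value, and its libraries stood at 134 and 148 CPM in WT/FL and 777 and 835 in FL/FL on day 2, and at 84.1 and 111 in WT/FL and 269 and 225 in FL/FL on day 3. Of the panel, Ifi44 was at 60.96 and 39.6 CPM in WT/FL and 236 and 211 in FL/FL on day 2, and at 105 and 155 in WT/FL and 392 and 344 in FL/FL on day 3. FL/FL libraries of both genes were above those of WT/FL on each day. Ifnb1, IFN-β itself, had 0.446 CPM at most and no called interaction (0.78, adjusted p = 0.896). Cdkn1a, the p53 target p21, was not called either (0.16, adjusted p = 0.343). Of 24 cGAS-STING pathway genes, Trex1 and Samhd1 were called (8.33%, beside 0.905% of all genes), with a list median of -0.10. Trex1 is itself the deleted gene and its call rests on few counts, while that of Samhd1 held in 2 of 8 fits.

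In the same promoter windows, the ISG element (ISRE, GAAANNGAA on both strands) occurs in 8.46% of all genes, in 5 of the 27 named genes with a negative interaction (18.5%) and in 12 of all 88 (13.6%), against 6 of the 50 genes with a positive interaction (12.0%). The AP-1 site (TGANTCA) occurs in 5.89% of all, in 6 of the 27 (22.2%) and in 8 of the 88 (9.09%), against 3 of the 50 (6.00%). The κB site occurs in 9.46% of all and in 4 of the 27 (14.8%), in 10 of the 88 (11.4%) and in 9 of the 50 (18.0%). No test was made of these shares, and none of these letter patterns contains another. Among the 27 named genes, Gbp5, Tnfaip3 and Vcam1 hold both an ISRE and an AP-1 match. The ISRE matches of Gbp5 and Tnfaip3 are shown with the match in capitals, and that of Vcam1, near the floor, is not (GRCm39, 5′ to 3′ along the gene).
Gbp5, chr3:142202397-142202465, plus strand: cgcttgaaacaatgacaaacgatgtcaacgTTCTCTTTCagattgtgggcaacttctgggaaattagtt
Tnfaip3, chr10:18891381-18891436, minus strand: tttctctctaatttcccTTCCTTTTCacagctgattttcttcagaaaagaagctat
In both genes shown, the match lies on the strand opposite to the gene, while in Vcam1 it lies on the strand of the gene.

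The other gene lists held few or no calls. Of 30 p53 targets, 1 was called higher (Ccng1, list median 0.21), of 17 fatty acid synthesis genes 1 (Scd2, 0.18) and of 47 lysosome genes 1 (Ctsd, 0.06). These were 3.33%, 5.88% and 2.13% of the lists, beside 0.328% of all genes called higher. None was called among 24 cholesterol synthesis genes (0.19), 19 LXR targets (-0.27), 41 glycolysis genes (-0.19), 25 unfolded protein response genes (-0.01), 23 MHC class I genes (-0.01) and 24 chemokines (-0.38). The 13 mitochondrially encoded genes were all below 0 with a median of -0.66 and none called. Their median genotype difference was -0.41 on day 2 and -1.0 on day 3, and their untreated interaction was -0.24. On day 3, 9 of the 13 were called lower in FL/FL, beside 827 of all 15257 genes. Without the second WT/FL library of day 3 the list median was -0.93.

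**Figure D5:**
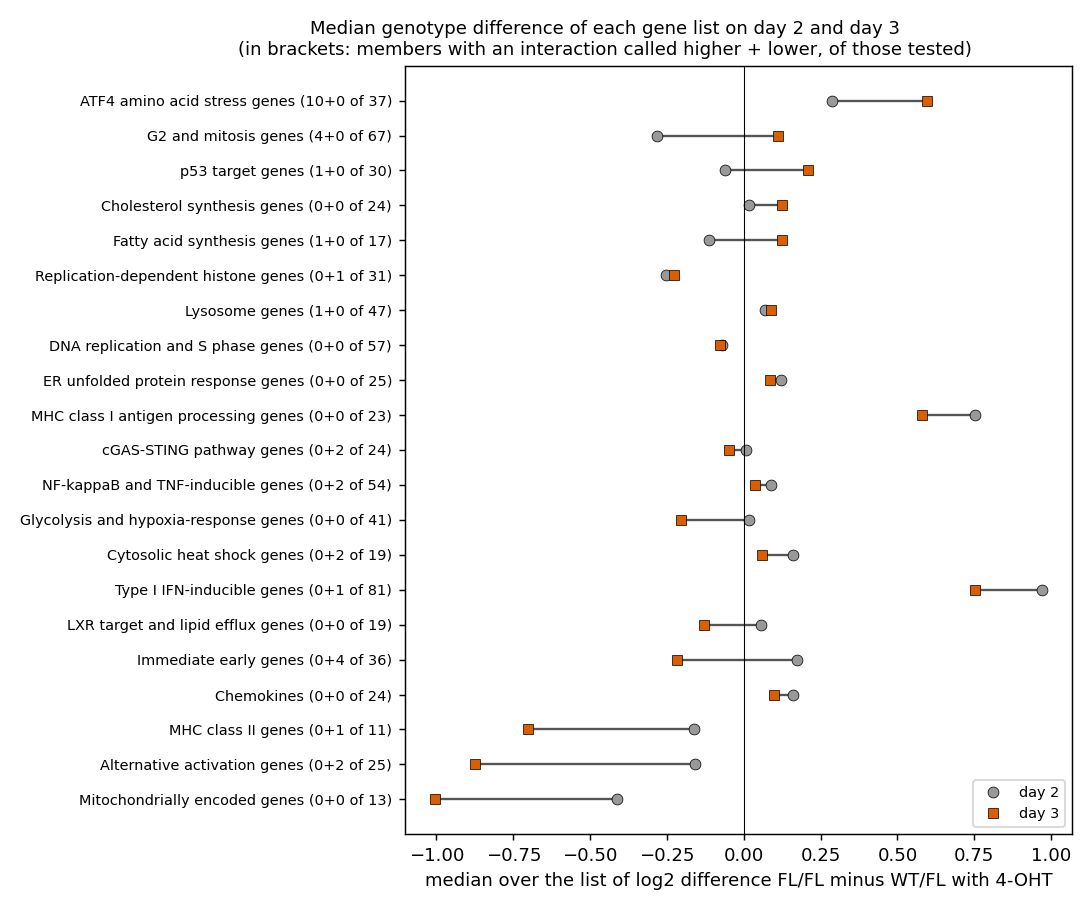
Median genotype difference (log2 FL/FL minus WT/FL, 4-OHT) of each gene list on day 2 and on day 3. The ATF4 list moves from 0.29 to 0.60 and the mitochondrially encoded genes from -0.41 to -1.0, while the ISG list stays high at 0.97 and 0.75.

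The libraries of day 4 did not enter the interaction and show what became of these differences. On day 4, 3284 genes differed between the genotypes (21.5%). Of the 76 gained genes, 45 were called on day 4 with the sign of day 3 and 3 with the opposite sign, and all 21 widened genes were called with the same sign. All 8 narrowed genes were called higher in FL/FL on day 4. Of the 29 lost genes, 13 were called on day 4, 10 higher and 3 lower in FL/FL. Aspm, lost on day 3, was lower in FL/FL by 3.99 on the log2 scale on day 4. Before day 2, on day 1, 3 genes differed between the 4-OHT-treated genotypes, Trex1 and Shisa5 among them.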

How the data were processed

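RNA-seq was measured in 32 BMDM libraries of 16 groups (genotype, treatment and day), 2 per group. The authors deposited 1 table of estimated counts per gene for 54281 Ensembl genes, made with Salmon and tximport on GRCm39. The submitters' processing notes name FastQC 11.9, Salmon and DESeq2 1.32. The annotation release and strand setting are not given in the sources used here. The deposited estimated counts are whole numbers. GENCODE symbols (GRCm39) matched 51048 identifiers, and unmatched ones held 0.32% of counts. No column was left unused.

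Counts were fitted in edgeR 4.0.16 (R 4.3.3, limma 3.58.1) with TMM factors, filterByExpr with a count minimum of 10 and a robust quasi-likelihood fit of all 32 libraries with 1 mean per group (16 residual degrees of freedom). P-values were adjusted by Benjamini-Hochberg over 15257 genes and called below 0.01, the study's FDR. An exact permutation test of 2 against 2 libraries cannot go below 0.333, so only the model across all genes was used. CPM used TMM-scaled totals. Classes followed from the calls on days 2 and 3. Intervals and floors cover counting or model error only. The fit was tested on simulated counts with known interactions put in. It recovered 57 of 100 of log2 size 1 and 64 of 100 of log2 size 2, with 1 false call. Interactions of these sizes can thus go uncalled.

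Named genes were Trex1, the PCR panel, Ifnb1, Mki67 and Cdkn1a, the 10 largest called rises and falls with a mean CPM of at least 1, up to 4 called members per list by p, the 3 with the smallest p per class and reversed genes. Any other called member was named after its values were seen. The members, gene lists and motifs were chosen with earlier results of these data known. Promoter windows and shared 31-base stretches were computed from the reference genome and transcripts. Alternatives were RLE factors, no filter, a count minimum of 50, DESeq2 1.42.0, the libraries of the contrast alone, other thresholds and leaving out each library, and, added after the data were seen, a replicate block by the numbers in the library titles.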

Additional observations from a re-analysis of the deposited data

Results flagged for a closer look

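For 11 genes the change of the genotype difference from day 2 to day 3 differed between 4-OHT-treated and untreated cells by a test of that difference itself (edgeR quasi-likelihood test, adjusted p from 0.000255 to 0.00548). On the log2 scale, treated minus untreated, the value was 1.38 for Asns, 0.69 for Aars1 and 1.00 for Atp8b4. It was -1.49 for Pdk3, -1.32 for Shisa5, -1.19 for Ptgs1, -1.25 for Ighm, -1.27 for Clec10a, -0.95 for Sema4a (a semaphorin) and -0.72 for Slc30a1. For Trex1 it was -7.35, a fitted value that rests on 14 and 9 counts in the FL/FL libraries of day 2 and 0 in those of day 3.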

How the results depend on the processing

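The labels name no animal or batch, but within each genotype the numbers in the library titles fall into 2 runs with 1 library of each group. What these runs are is not stated, and the runs of one genotype are not tied to those of the other. Libraries of 1 run deviated from their group means together only weakly. The r over genes was 0.0242 to 0.118 for the 28 pairs of groups in WT/FL and -0.00775 to 0.144 in FL/FL, with 5 of 28 above 0.1 in each. The main fit assumed no pairing, although a weak r does not show that the runs were unpaired. A replicate block for these runs within each genotype, added after the data were seen, raised the 138 called interactions to 332 (122 higher and 210 lower), which included all 138. With the block there were 184 gained, 72 lost, 39 widened, 20 narrowed and 7 reversed genes, 10 called on neither day, 1 untreated call and 26 genes that differed between treated and untreated cells, 10 of them among the 11.

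The 138 called interactions (50 higher and 88 lower) became 538 (195 and 343) with no filter beyond 1 count, 324 (134 and 190) with DESeq2, 415 (166 and 249) at an adjusted p below 0.05 and 12 (5 and 7) with an absolute log2 above 1.5. The cause was not tested for the first 2 settings. Of the 138, 133 were among the 538 and 136 among the 324. With only the libraries of the contrast 122 genes were called, and 79 of the 138 were among them. Fits that left out 1 library kept 41 to 85 of the 138. Leaving out 1 library gave 42 to 110 calls, 14 to 43 higher and 27 to 67 lower. The count was 42 and 57 without the first and second FL/FL library of day 2, 65 and 63 without those of day 3, 45 without the second WT/FL library of day 2 and 66 without the first of day 3.

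By class, with no filter, DESeq2 and an adjusted p below 0.05 in turn, gained genes numbered 261, 169 and 218, lost genes 96, 71 and 90, widened genes 67, 39 and 48, narrowed genes 56, 24 and 29, reversed genes 23, 3 and 21, and genes called on neither day 35, 18 and 9. With the absolute log2 minimum there were 9 gained, 1 widened, 0 lost, 0 narrowed and 0 reversed genes. With a count minimum of 50 there were 4 reversed genes, and with only the libraries of the contrast 7 genes called on neither day. With 1 library left out the ranges were 26 to 62 gained, 6 to 22 lost, 8 to 29 widened, 0 to 7 narrowed, 0 to 3 reversed and 0 to 2 called on neither day.

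The genotype difference counts became 1920 on day 2 and 2901 on day 3 at an adjusted p below 0.05, 89 and 133 with the absolute log2 minimum, and 766 to 1224 and 930 to 1789 with 1 library left out. Changes with time became 773 in FL/FL and 876 in WT/FL with that minimum, and 3762 to 4996 and 4098 to 5445 with 1 library left out. The 0 untreated calls became 53 with no filter, 4 with DESeq2, 1 with only the libraries of the contrast and 0 to 1 with 1 library left out. The 11 genes that differed between treated and untreated cells became 188, 40, 28 and 1 with no filter, DESeq2, an adjusted p below 0.05 and the absolute log2 minimum, and 9 to 19 with 1 library left out.

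None of the 48 named called genes changed sign under any of these settings. For named genes without a call, signs were not compared. Of the 48, 18 were called in all 8 fits that left out a library, while Mmp9, Gbp5, Ckap2 and Tspan32 were called in none. Ifi44, Oasl1, Ifit3 and Cxcl10, not called, were called with no filter. Depth limits genes at a few counts, such as Trex1 in FL/FL cells and Vcam1, which have no usable fold.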
